A study of Mus musculus with 2 samples.

Results

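The SLC25 genes encode the mitochondrial carriers, proteins that move nucleotides, phosphate, amino acids, organic acids and cofactors across the inner mitochondrial membrane. They were taken here by symbol, as every gene named Slc25a with a number in the array annotation apart from Slc25a37 and Slc25a38, whatever its signal. The rule found 42 genes, covered by 91 probe sets, among the 18193 genes that have a probe set with a single gene symbol. The arrays measured transcripts of washed platelets from C57BL/6 mice of 2 genotypes. Smad4 f/f mice carry loxP sites around Smad4 and served as controls. Smad4 −/− mice also carry Cre under the Pf4 promoter, which is active in megakaryocytes, and lack Smad4 in that lineage while other cells keep it. The labels give 6 mice per genotype and 1 array per genotype, so each value below is a single reading and no difference was tested against a spread between mice. Whether RNA was pooled, and the age of the mice, are not given in the sources used here.

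Each carrier has a fixed set of substrates. The ADP/ATP carriers exchange ATP made inside the mitochondrion for ADP from the cytosol, the phosphate carrier brings in the phosphate that ATP synthase needs, and the aspartate/glutamate and oxoglutarate carriers form the malate-aspartate shuttle, which passes reducing equivalents from glycolysis inward. Platelets have no nucleus but hold a few mitochondria, which supply ATP by oxidative phosphorylation and fatty acid oxidation. Their mRNA is inherited from the megakaryocyte.

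Of 42 SLC25 genes, 32 were measured, meaning that the gene's probe set reached a signal of 145 (log2 7.18, the floor) on at least 1 array. Among these, 2 were at least 2-fold higher in Smad4 −/−, Slc25a22 and Slc25a11, against 3.42% of all 11089 measured genes. On the lower side, Slc25a47 was the 1 gene past 2-fold, against 3.58% of all measured genes. With 32 genes, those shares correspond to about 1 gene in each direction, so the counts do not set the family apart. The other 29 genes did not pass 2-fold on floored signals. For those of them with 1 array below the floor this is only a bound, and with no floor Slc25a45 (log2 ratio −1.24), Slc25a40 (−1.04), Slc25a26 (−1.02) and Slc25a39 (−2.03) were also past 2-fold on the lower side. With no floor, 11.7% of all measured genes were at least 2-fold lower. The size of each of these ratios rests on a reading below the floor. That of Slc25a39 comes from a weak probe set, and the stronger probe sets of this gene, ending in _x_at, were higher in Smad4 −/−. Among the genes short of 2-fold was the ADP/ATP carrier gene Slc25a4, whose signal was far above the floor and whose 3 measured probe sets were all higher in Smad4 −/−. The ratio was below 1 in 22 genes and above 1 in 10, so 31.2% of the carriers were higher in Smad4 −/− against 48.3% of all measured genes. With the arrays centred on their medians the carriers above 1 were 14 of 32 (43.8%), against 55.2% of all measured genes, and when all measured probe sets of a gene were averaged they were also 14 of 32, against 48.0%. The median log2 ratio of Smad4 −/− over Smad4 f/f was −0.15 for the carriers and −0.019 for all measured genes.

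The floor bears on these counts. Of the 32 genes, 22 reached it on both arrays. Another 7 reached it in Smad4 f/f alone and 3 in Smad4 −/− alone, and a gene of this kind must differ in that direction. Over the 22 genes the median was −0.11, beside −0.0078 over the 7876 genes with both arrays at or above the floor. Probe sets of the same gene give a technical yardstick for such values. Their log2 ratios had a pooled SD of 0.48 over 4252 genes with several measured probe sets, and 0.44 over the 15 carriers of that kind. These ratios were taken on floored signals, so bounds are among them. The yardstick holds no spread between mice or arrays. Signals are linear below, and where 2 are set against each other the first is that of Smad4 f/f.

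**Figure D1:**
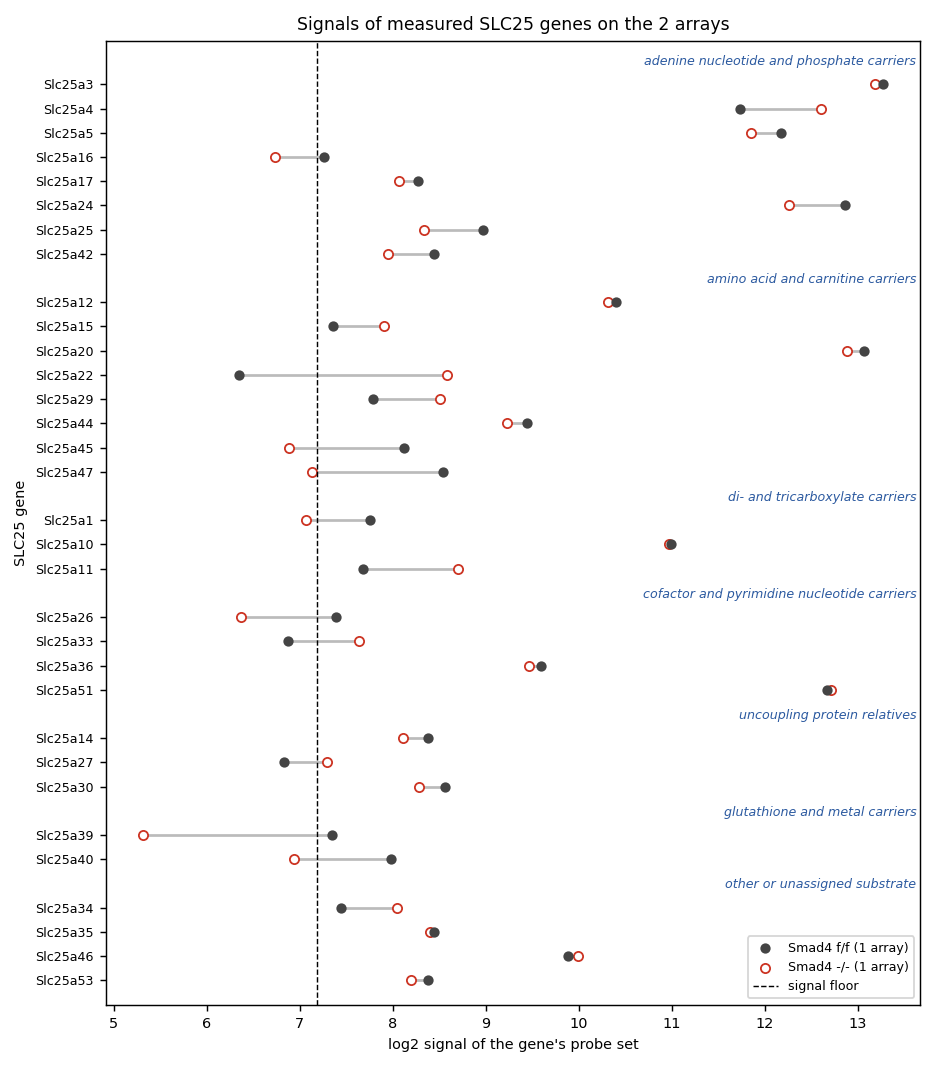
Log2 signal of the probe set of each of the 32 measured SLC25 genes in Smad4 f/f (filled points) and Smad4 −/− (open points), 1 array each, grouped by substrate, with the floor of 7.18 as a dashed line. Points should be compared along a row only, since different probe sets do not share a scale; the longest rows above the floor on both arrays belong to Slc25a11 and Slc25a4.

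**Figure D2:**
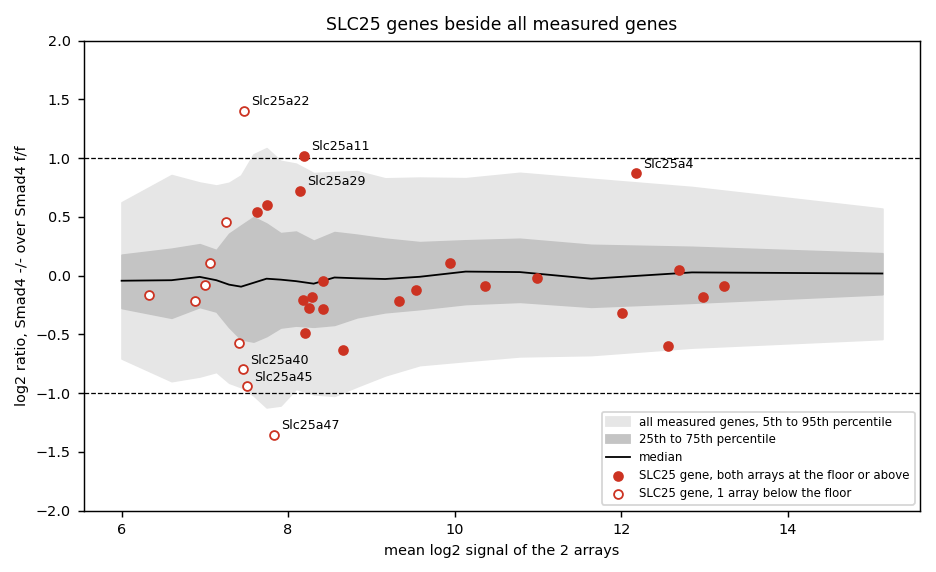
Log2 ratio against mean log2 signal for the 32 measured SLC25 genes, over the central 50% and 90% bands of all 11089 measured genes in 20 bins of signal. Slc25a22 (at least 2.65-fold higher), Slc25a11 (2.03-fold higher) and Slc25a47 (at least 2.56-fold lower) pass the dashed 2-fold lines; open points have 1 array below the floor and are bounds.

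The arrays carried the platelet transcriptome on both sides. All 11 platelet markers with a probe set, among them Pf4, Itga2b and Gp9, were measured, with log2 ratios from −0.11 to 0.43. Smad4 itself read 949 against 894, 600 against 548 and 313 against 288 by its 3 probe sets, log2 ratios of −0.086, −0.13 and −0.12. These readings were near level and did not show a loss of Smad4 transcript. The place of the probe sets relative to the deleted part was not analysed here. Markers of other cells were not level. The summed signal of the 14 erythroid markers with a probe set was 12650 in the controls and 28449 in Smad4 −/−, with 4 of 10 measured at least 2-fold higher (Fech, Bpgm, Alas2 and Slc4a1) and 0 at least 2-fold lower. Short of 2-fold, 5 of the 10 had lower values (Hbb-b2, Tfrc, Rhd, Hba-a2 and Klf1, log2 ratios from −0.97 to −0.31), and the list median was −0.066. The markers Hba-a1, Epb42, Rhag and Kel were below the floor on both arrays. The summed signal of the T and NK cell markers was 6902 and 15293, of which Cd28 made up most (4685 against 12825). Of the 7 measured markers of that list 6 were higher and Cd3d was lower (356 against 181), with Cd3e, Cd3g and Cd4 below the floor. For the endothelial markers the sum was 4290 and 6773, of which Pecam1 made up most (2203 against 4170). Of the 5 measured endothelial markers 4 were higher and Robo4 was lower (257 against 153), with Tek, Tie1 and Emcn below the floor. The summed signal of the B cell markers was 4340 and 4594, and that of the neutrophil and monocyte markers 146131 and 139843. Lyz2 made up most of the last sum, and 5 of the 6 measured markers of that list were higher in Smad4 −/−, with a median log2 ratio of 0.59. RNA quality, read as the signal of the Gapdh control at its 3' end over that at its 5' end, gave ratios of 1.86 in the controls and 2.61 in Smad4 −/−, and the same reading of the beta-actin control gave 1.16 and 1.27. The part of these differences in the carrier values was not tested, and in bulk RNA fewer cells of a type and less RNA per cell cannot be told apart.

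The carriers of adenine nucleotides, phosphate and coenzyme A had 8 measured members of 12. By their gene values 0 were past 2-fold, 7 were lower and 1 was higher in Smad4 −/−, with a median log2 ratio of −0.26. Of all measured genes 48.3% were higher, and their median was −0.019. The split depends on the probe set read. With measured probe sets averaged, Slc25a5 (0.13) and Slc25a25 (0.24) were above 0, and the other measured members kept their sign. The 1 gene higher by its gene value was Slc25a4, which encodes ANT1, the ADP/ATP carrier typical of heart and muscle. Its probe sets read 3412 in the controls and 6252 in Smad4 −/−, 4127 and 6091, and 3882 and 4980, log2 ratios of 0.87, 0.56 and 0.36. All 3 were therefore higher in Smad4 −/−, by amounts of 1.28-fold to 1.83-fold, and the fourth lay below the floor on both arrays. The probe set reading 4127 and 6091 ends in _x_at, which marks probes that can also bind other transcripts. Its paralogue Slc25a5 encodes ANT2, the ADP/ATP carrier of proliferating cells, and did not show the same direction. The strongest of its 8 measured probe sets read 4614 in the controls and 3693 in Smad4 −/− (log2 ratio −0.32), and the others ran from −0.14 to 0.62, with 4 of 8 higher. Of those 8 probe sets 6 also end in _x_at, so signals of the related ADP/ATP carriers may be split between them. Slc25a31, the germ cell ADP/ATP carrier ANT4, lay far below the floor (5.87 and 9.42). Whether the ratios of Slc25a4 and Slc25a5 differ cannot be tested with 1 array each.

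Slc25a3, the phosphate carrier, was nearly level, reading 9936 in the controls and 9359 in Smad4 −/− (log2 ratio −0.086). The ATP-Mg/phosphate carriers, which are controlled by calcium and adjust the adenine nucleotide pool of the matrix, gave lower values by their strongest probe sets. Slc25a24 read 7454 against 4927 (log2 ratio −0.60) and Slc25a25 read 502 against 324 (−0.63). Neither direction held over the other probe sets, with 454 against 548 (0.27) for Slc25a24, and 121 against 202 (at least 1.39-fold higher) and 87.0 against 264 (at least 1.82-fold higher) for Slc25a25. Slc25a23, of the same type, and Slc25a41, a relative, were not measured. Slc25a42, a carrier of coenzyme A, read 349 against 248 (−0.49), Slc25a17, the peroxisomal member of the family, 310 against 269 (−0.21), and Slc25a16, linked to coenzyme A uptake, 154 against 107, below the floor in Smad4 −/−. Slc25a54, a relative of Slc25a24, was not measured.

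The sequence just before the start site is shown for the paired ADP/ATP carriers, because the probe sets taken as their gene values went different ways. The probe sets of Slc25a5 were mixed, with log2 ratios from −0.32 to 0.62. The sequence is also shown for Slc25a24 and Slc25a22. Slc25a24 has a strong signal and a lower value by its strongest probe set, though not by its other measured one (0.27). Slc25a22 is the carrier with the highest ratio. Each run is the 250 bases before the start in the direction of transcription, from RefSeq on GRCm38.p6, and lies outside the annotated span of its gene. Capitals mark matches to the motifs listed with the promoter counts. The windows are Slc25a4 at chr8:46211063-46211312, minus strand, Slc25a5 at chrX:36795347-36795596, plus strand, Slc25a24 at chr3:109122899-109123148, plus strand, and Slc25a22 at chr7:141437875-141438124, minus strand.
Slc25a4: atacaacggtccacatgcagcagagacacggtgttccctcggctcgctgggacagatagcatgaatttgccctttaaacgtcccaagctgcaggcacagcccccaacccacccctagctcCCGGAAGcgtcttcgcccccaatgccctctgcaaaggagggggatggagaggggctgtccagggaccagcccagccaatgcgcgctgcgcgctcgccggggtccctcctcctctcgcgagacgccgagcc
Slc25a5: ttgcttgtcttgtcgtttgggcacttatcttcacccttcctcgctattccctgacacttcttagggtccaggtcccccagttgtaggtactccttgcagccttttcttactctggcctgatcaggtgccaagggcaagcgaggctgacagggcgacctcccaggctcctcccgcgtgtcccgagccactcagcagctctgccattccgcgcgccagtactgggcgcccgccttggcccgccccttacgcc
Slc25a24: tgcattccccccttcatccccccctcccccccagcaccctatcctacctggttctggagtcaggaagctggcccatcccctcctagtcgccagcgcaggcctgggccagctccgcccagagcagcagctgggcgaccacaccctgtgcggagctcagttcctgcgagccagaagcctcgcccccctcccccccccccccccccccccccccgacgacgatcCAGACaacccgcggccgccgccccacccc
Slc25a22: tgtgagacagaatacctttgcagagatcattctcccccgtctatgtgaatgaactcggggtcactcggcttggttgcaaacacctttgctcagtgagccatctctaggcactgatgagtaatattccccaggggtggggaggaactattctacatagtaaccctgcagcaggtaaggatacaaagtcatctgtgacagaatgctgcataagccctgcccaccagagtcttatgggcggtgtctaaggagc

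Of these windows, that of Slc25a4 holds 1 ETS site and that of Slc25a24 holds 1 SMAD box close to the start, while those of Slc25a5 and Slc25a22 hold none of the motifs. RefSeq promoters of coding genes were found for 26 of the 32 measured carriers and for 8535 of all measured genes, and all annotated starts of a gene were searched on both strands. The SMAD box CAGAC, the letters that SMAD3 and SMAD4 bind, was present in 13 of 26 carriers and in 46.1% of all measured genes. The 8-letter SMAD palindrome GTCTAGAC was present in 0 of 26 and 0.281%. The core TGCGCA of sites for NRF1, a regulator of respiratory genes, was found in 2 of 26 (7.69%), Slc25a3 and Slc25a36, against 12.5%. The ETS site CCGGAAG, which GABPA can bind, was found in 4 of 26 (15.4%), Slc25a3, Slc25a4, Slc25a17 and Slc25a20, against 14.7%, and the ERR motif AAGGTCA in Slc25a34 alone (3.85%, against 3.53%). None of these motifs contains another. Of the carriers past 2-fold, the window of Slc25a47 holds 3 SMAD boxes, that of Slc25a11 holds 0, and a second annotated start of Slc25a22 has 1; these windows lie inside the annotated span of the gene and are not shown. The carrier promoters thus held SMAD boxes about as often as those of all measured genes, and a match is a description of letters and not a bound site.

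The amino acid and carnitine carriers had 8 measured members of 12, with 1 gene past 2-fold in each direction. Slc25a22, which brings glutamate into the mitochondrion, read 81.7 in the controls, below the floor, and 384 in Smad4 −/−, at least 2.65-fold higher. It has a single probe set, so there is no second reading. Slc25a47, a carrier known mainly from liver, read 371 in the controls and 140 in Smad4 −/−, where it lay just below the floor, at least 2.56-fold lower. Its only probe set ends in _s_at, a mark of probes shared by several transcripts. Slc25a29, which carries basic amino acids, is the next coding gene to Slc25a47 on chromosome 12, in the gene order of GRCm38.p6, and went the other way by its gene value, reading 220 against 364 (log2 ratio 0.72). Of its other 3 measured probe sets, the strongest read 480 against 436 (−0.14). The remaining pair each had 1 array below the floor, reading 77.6 against 149 (at least 1.03-fold higher) and 157 against 48.1 (at least 1.08-fold lower). The neighbours therefore differed by 1 probe set each, and the direction of Slc25a29 depends on which is read.

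Slc25a20, the carnitine/acylcarnitine carrier that admits fatty acids for oxidation, was level by both of its probe sets. They read 8616 in the controls and 7594 in Smad4 −/− (log2 ratio −0.18), and 2208 and 2196 (−0.0083). Slc25a12, the aspartate/glutamate carrier aralar, was also near level by its strongest probe set, 1353 against 1275 (−0.085), while 2 weak ones read 154 against 210 (0.45) and 114 against 169 (at least 1.16-fold higher). Slc25a13, the second aspartate/glutamate carrier, was not measured, and neither were Slc25a18, the second glutamate carrier, Slc25a2 and Slc25a48. Slc25a15, the ornithine carrier of the urea cycle, read 164 against 239 (0.54), with 1 measured probe set. Slc25a44, a carrier of branched-chain amino acids, read 697 against 600 (−0.22) by its strongest probe set, but 155 against 249 (0.69) and 134 against 289 (at least 1.99-fold higher) by the others. Slc25a45 read 279 in the controls and 118 in Smad4 −/−, below the floor, at least 1.92-fold lower. That bound is short of 2-fold, and with no floor its log2 ratio was −1.24.

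All 3 di- and tricarboxylate carriers with a probe set were measured, and they went different ways. Slc25a11, the oxoglutarate/malate carrier and the partner of aralar in the malate-aspartate shuttle, read 206 in the controls and 417 in Smad4 −/−, 2.03-fold higher, just past 2-fold and with 1 probe set. It was the only carrier past 2-fold by its gene value with both arrays above the floor. Single probe sets of Slc25a39 (957 against 2008) and Slc25a30 (392 against 183), not used as gene values, also passed 2-fold above the floor. Slc25a10, the dicarboxylate carrier, read 2039 against 2015 (log2 ratio −0.017), and its weak second probe set read 188 against 52.6, below the floor. Slc25a1, the citrate carrier that exports carbon for fatty acid synthesis, read 216 against 134, below the floor, at least 1.48-fold lower.

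Of 5 cofactor and pyrimidine nucleotide carriers 4 were measured, and 0 of them passed 2-fold on floored signals. Slc25a51, which imports NAD into mitochondria, was among the carriers with the closest agreement between its probe sets, reading 6536 in the controls and 6746 in Smad4 −/− (log2 ratio 0.046), and 823 and 897 (0.12). Slc25a36 and Slc25a33, both carriers of pyrimidine nucleotides, read 774 against 709 (−0.13) and 117 against 199. The Smad4 f/f value of Slc25a33 lay below the floor, so that it was at least 1.37-fold higher. Slc25a26, the S-adenosylmethionine carrier, read 168 against 82.8, below the floor in Smad4 −/−, at least 1.16-fold lower (log2 ratio −1.02 with no floor). Slc25a32, linked to folate and FAD transport, was not measured.

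The relatives of the uncoupling proteins, Slc25a14, Slc25a27 and Slc25a30, were all measured, and 0 passed 2-fold on floored signals. Slc25a30 was lower in Smad4 −/− by all 3 of its measured probe sets. They read 378 in the controls and 311 in Smad4 −/− (log2 ratio −0.28), 293 and 244 (−0.27), and 392 and 183 (−1.10). The last alone passed 2-fold, and the mean over the 3 was −0.55. Slc25a14 read 334 against 277 (−0.27) with 1 probe set. Slc25a27, a brain form also called UCP4, hovered around the floor, reading 114 against 157 and, by its other measured probe set, 154 against 98.9.

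Of 3 glutathione and metal carriers 2 were measured, with 0 past 2-fold by the floored gene value. Slc25a39, which imports glutathione and is strongly expressed in red cell precursors, took its gene value from a weak probe set that read 163 in the controls and 39.9 in Smad4 −/−, at least 1.12-fold lower. Its 3 probe sets ending in _x_at were left aside by the rule for gene values, although their signals were far above the floor, and all of them were higher in Smad4 −/−. They read 2893 and 4862 (log2 ratio 0.75), 957 and 2008 (1.07), and 543 and 813 (0.58). With the strongest probe set of any kind, Slc25a39 was therefore 1.68-fold higher. The erythroid markers named above, Fech, Bpgm, Alas2 and Slc4a1, were also higher on that array, whereas Hba-a2 (1014 against 781), Hbb-b2 (517 against 263), Tfrc (532 against 350), Rhd (451 against 322) and Klf1 (269 against 217) were lower. The part of red cell RNA in the Slc25a39 values was not tested. Slc25a40, its paralogue, read 253 against 123, below the floor, at least 1.74-fold lower. Slc25a28, the iron importer mitoferrin 2, was not measured.

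The 4 remaining members, whose substrate was left unassigned here, were within 2-fold. Slc25a46, an outer membrane protein of mitochondrial dynamics, had conflicting probe sets of about equal signal, 946 against 1021 (log2 ratio 0.11) and 946 against 512 (−0.88). Slc25a53 had the closest agreement in the family, at 333 against 294 (−0.18) and 239 against 210 (−0.19). Slc25a34 read 174 against 265 (0.60) and Slc25a35 read 348 against 338 (−0.044), each with 1 probe set.

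Across the family, 15 genes had 2 or more measured probe sets. All of a gene's probe sets went the same way in 6 of them, higher in Smad4 −/− for Slc25a4 and Slc25a51 and lower for Slc25a10, Slc25a20, Slc25a30 and Slc25a53. In the other 9 they were mixed. The lowest and highest log2 ratio of a gene lay 0.0067 apart for Slc25a53, but at least 1.49 apart for Slc25a25 and at least 1.24 apart for Slc25a39, where 1 end is a bound. The genes past 2-fold, Slc25a22, Slc25a11 and Slc25a47, belong to the 17 carriers with 1 measured probe set, so none of them has a second reading.

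**Figure D3:**
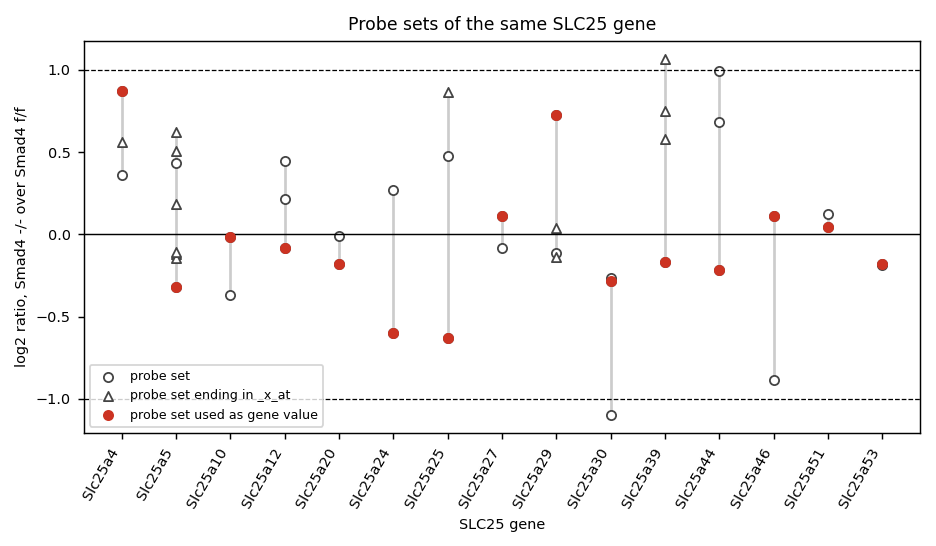
Log2 ratio of every measured probe set for the 15 SLC25 genes with 2 or more, with the probe set used as gene value filled, those ending in _x_at as triangles and the 2-fold lines dashed. Slc25a4 lies above 0 and Slc25a30 below 0 by all 3 of their probe sets, whereas Slc25a39, Slc25a25 and Slc25a44 span 0 by more than 1 log2 unit.

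The 10 carriers that were not measured were Slc25a2, Slc25a13, Slc25a18, Slc25a23, Slc25a28, Slc25a31, Slc25a32, Slc25a41, Slc25a48 and Slc25a54. Their gene signals all lay below the floor on both arrays. No ratio is given for them, since signals that are both below the floor have no order.

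Genes that work with the carriers were read in the same way. Carrier precursors pass the outer membrane through the TOM complex and reach the TIM22 complex of the inner membrane with the help of small TIM chaperones. Of 11 measured genes of this import route, 0 passed 2-fold, 5 were higher and the median log2 ratio was −0.31, beside −0.019 over all measured genes. Tomm7 and Tomm20, those with the highest signals, read 4868 against 3934 (−0.31) and 3976 against 4551 (0.19). The 4 measured probe sets of Tomm7 were all lower (−0.33 to −0.22), whereas the 5 of Tomm20 were mixed (−0.39 to 0.52). At the ends of the range, named after their values were seen, were Timm8b (−0.86) and Timm10 (at least 1.78-fold higher), both small TIM chaperones with 1 probe set. Of the genes with the carrier fold but another name, Mtch2, an outer membrane insertase, read 1739 against 1352 (−0.36) with 3 probe sets lower, and Ucp3, an uncoupling protein, 139, below the floor, against 218.

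Among 16 measured genes of other mitochondrial channels and carriers, 1 was at least 2-fold higher, 0 were lower and the median was 0.037. The exception was Mpc1, a subunit of the mitochondrial pyruvate carrier, which belongs to another protein family. It read 2398 in the controls and 7252 in Smad4 −/−, 3.02-fold higher, with 1 probe set. Of 15 measured enzymes on either side of the carriers 0 passed 2-fold on floored signals, with 8 higher and a median of 0.042. Mdh2, the malate dehydrogenase of the malate-aspartate shuttle, read 7697 against 8473 (0.14), and Mthfd2l, of mitochondrial folate metabolism, 5976 against 7825 (0.39). Of 8 measured nuclear regulators of mitochondrial genes, 1 was past 2-fold in each direction and the median was −0.15. The shares of all measured genes past 2-fold were again 3.42% higher and 3.58% lower. Tfb1m, which methylates mitochondrial ribosomal RNA, read 375 against 782, 2.08-fold higher, with its second probe set at 0.30. Tfam, which packages and transcribes mitochondrial DNA, read 421 against 174, 2.42-fold lower, but its second probe set gave 0.68 in the other direction.

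**Figure D4:**
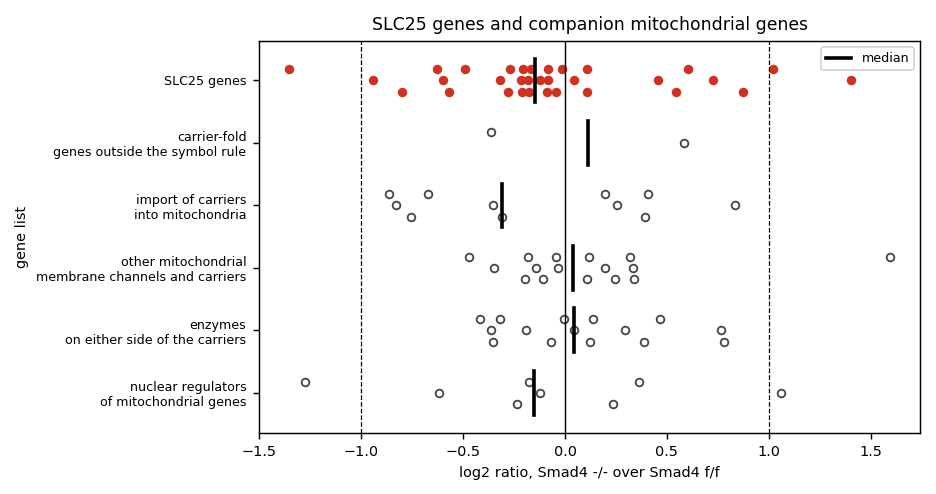
Log2 ratios of the 32 measured SLC25 genes and of the measured genes of 5 companion lists, with list medians as black bars and the 2-fold lines dashed. Every list straddles 0, and the points past 2-fold outside the SLC25 genes are Mpc1 (1.60), Tfb1m (1.06) and Tfam (−1.28).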

How the data were processed

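The authors deposited a log2 signal for every probe set and array. The submitters' processing notes name MAS5, without version. The log2 scale was inferred from the values, since with 2% trimmed from each end the antilogs average 500.0 on either array. Of 45101 probe sets, 64 are controls, and 34945 have 1 gene symbol in the platform annotation, which can be out of date. By Entrez ID, 34741 of them matched a RefSeq table of GRCm38.p6, with 0 symbols changed.

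Signals below a floor, set at the 60th percentile of the array where that was higher, were raised to it. The probe set with the highest mean signal stood for each gene (_x_at only where there was no other) and a gene was measured if that probe set reached the floor on at least 1 array. A ratio with 1 side below the floor is a bound, written as at least that fold. Ratios are Smad4 −/− over Smad4 f/f. No test was possible on 1 array per genotype, whose number limits the precision, and 2-fold is a rule of size only.

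All SLC25 genes were accounted for by name, and in companion lists those past 2-fold or otherwise the 2 with the highest signal. Members and lists were chosen with earlier results of these data known. Alternatives were other scalings (median centring, quantile, loess), floors, gene values and fold thresholds. The steps were tested on simulated data. Python 3.11.15 with pandas 2.3.3 and statsmodels 0.14.6 was used.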

Additional observations from a re-analysis of the deposited data

How the results depend on the processing

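The counts of carriers past 2-fold, 2 higher and 1 lower, stood under median centring, quantile normalisation and loess. They were also 2 and 1 with the mean of a gene's probe sets, with the strongest probe set of any suffix, and where all probe sets had to go 1 way, but the genes past 2-fold have 1 measured probe set each, so these settings cannot change their values and say nothing about stability. Shares in brackets are those of all measured genes under the same setting. With the floor at the 50th percentile 3 of 35 carriers were lower (5.80%), and with no floor on the values 5 of 32 (11.7%). With the floor at the 75th percentile, which left 24 carriers measured, counts were 0 higher and 0 lower (2.44% and 1.95%). At 3-fold they were also 0 and 0 (0.514% and 0.415%), and at 1.5-fold 5 and 5 (11.8% and 13.3%). Without probe sets ending in _s_at or _x_at, which removes Slc25a47, 0 were lower (3.53%). Among the 22 carriers with both arrays at the floor or above, 1 was higher and 0 lower (2.98% and 2.77%). The median log2 ratio stayed below 0 in all 10 alternatives that change the values, from −0.18 with no floor to −0.076 with median centring, which moves the median of all measured genes by 0.078. Of 301 gene values under the alternatives, 284 moved by less than the SD between probe sets, and 0 of the genes past 2-fold reversed. The sign was the same throughout for 22 of 32 carriers. Many of these values could not move, whatever the data. A ratio is unchanged by any floor below both signals, and a gene with 1 measured probe set has no other to read. These tallies therefore say little about stability. Slc25a11 ranged from 0.68 to 1.11, Slc25a22 from 0.56 to 2.24, Slc25a47 from −1.41 to −0.51 and Slc25a39 from −2.03 to 0.75. The strongest probe set of any suffix and the restriction to both arrays above the floor were chosen after seeing the data. No paired analysis was possible because there is 1 array per genotype.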
